A study of Mus musculus with 10 samples.

Results

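The 10 genes described here act in neural cell adhesion. They are L1cam, Chl1, Nrcam and Nfasc of the L1 family, Ncam1 and Ncam2, the contactins Cntn1 and Cntn2, Astn1, and Cd24a. Every probe set annotated to only 1 of these genes was taken, which gave 34 of the 45137 probe sets on the 430A and 430B chips, 20 on 430A and 14 on 430B, for 10 of 18193 genes. No probe set that names several genes included one of them. The samples were medulloblastomas, malignant tumours of the cerebellum, and the cerebellar tissue next to them, on Affymetrix expression arrays. Each chip carried 3 medulloblastoma arrays and 2 cerebellum arrays, 10 arrays in all. Both tissues came from mice that carried CAGGS-CreER, a tamoxifen-activated Cre recombinase driven by a ubiquitous promoter, and R26-SmoM2, an activated form of the Hedgehog signal transducer Smoothened. All mice were given tamoxifen, 1 mg for each 40 g they weighed, on postnatal day 10. The labels call the adjacent tissue wild type, although its mice carried the same alleles and received the same injection. The sources used here give neither the age at collection nor whether a tumour and a cerebellum of one number shared an animal, nor whether a number means the same animal on both chips. The labels call the arrays of a tissue biological replicates without naming the animals, so p-values measure the spread between these samples, which may be partly technical.

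The L1 family and the NCAM proteins carry immunoglobulin and fibronectin domains outside the cell. The L1 family spans the membrane, and its cytoplasmic tails bind ankyrins. The contactins and CD24 are held in the membrane by a lipid anchor and signal through partner proteins. In the postnatal cerebellum, granule neuron precursors divide in the outer part of the external granular layer. Their daughters leave the cycle, display contactin 2 (TAG-1) in the inner part of that layer, extend axons and then move inward along Bergmann glia, with astrotactin 1 as a neuronal ligand of the glial surface. CD24 is a small, heavily glycosylated protein of young neurons and of several blood and epithelial cells.

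Values are the deposited intensities on a linear scale. Array medians lay between 33.3 and 35.9 on 430A and between 22.5 and 24.0 on 430B. The arrays of medulloblastoma 1 and 2 stood apart on 430B. Over the 100 probe sets that both chips hold, the medians on those 430B arrays were 242 and 234. Medulloblastoma 3 read 145 and the cerebellum samples 166 and 171 on 430B. On 430A the tumours read 139 to 152, and both cerebellum samples 158. Comparisons on 430B are therefore given also with the 430B arrays scaled on those shared probe sets and without the arrays of medulloblastoma 1 and 2, wherever either changes a call, a direction or the size by over 1.5 times. In the fit without those arrays the lone tumour array is assumed to vary like the cerebellum arrays. In both of these fits limma pooled the spread almost wholly over probe sets, so their p-values hardly reflect a probe set's own spread. Scaling moved the median log2 fold change of all 430B probe sets to -0.39, against -0.02 as deposited. It adds the same log2 shift to all values of an array. Relative to the median of all 430B probe sets, the 13 tested ones of these genes therefore had the same log2 fold change to 2 decimals. A sign that changes with scaling thus reflects a shift of the whole chip. This sameness follows from the method and does not show whether the deposited or the scaled level is right. Where 1 of the 2 cerebellum arrays is left out, the spread comes from the tumours and the remaining array is assumed to vary like them.

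The fold change is given on the scale of log2(intensity + 16), as medulloblastoma over cerebellum ± SE, and a call is an adjusted p below 0.05 in limma over all tested probe sets of a chip. Probe sets in the dimmest 25% of a chip by mean level were not tested, and 28 of the 34 probe sets of these genes were. Cd24a rose in the tumours with all 3 of its probe sets. Cntn1 fell with all 3, Chl1 with 2 of the 3 tested and Ncam1 with 2 of the 5 tested. The other 6 genes had no call. On 430A, 3 of 15 tested probe sets were higher, where 13.1% of all tested probe sets of that chip were, and 5 were lower, where 19% of all were. These 8 calls compare with 32.2% of all called in either direction. At an unadjusted p below 0.05, 3 were higher (16.9% of all) and 7 lower (23.7% of all). All tumours lay above both cerebellum samples in 3 (23.8% of all) and below both in 7 (31.8% of all). On 430B, 0 of 13 were higher, where 7.85% of all were, and 2 were lower, where 9.77% of all were, and 17.6% of all were called in either direction. At an unadjusted p below 0.05, limma gave 0 higher (13.8% of all) and 5 lower (15.4% of all) on 430B. The tumours lay above both cerebellum samples in 1 (20.8% of all) and below both in 5 (24.7% of all). The median log2 fold change was -0.43 over the 15 on 430A, where the median of all tested probe sets was -0.05, and 0.04 over the 13 on 430B, where it was -0.02. Each array holds RNA of a whole tissue sample, where fewer cells of a type and less RNA per cell cannot be told apart. The 10 genes did not move as a group: with any called probe set counted, 1 rose, 3 fell, and 18 tested probe sets had no call. With 1 probe set for each gene, Cd24a, Cntn1 and Chl1 kept their call. Ncam1 then had none (0.01 ± 0.34, limma, adjusted p = 0.989). By that rule 10.7% of all 14702 genes were higher and 16% lower.

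**Figure D1:**
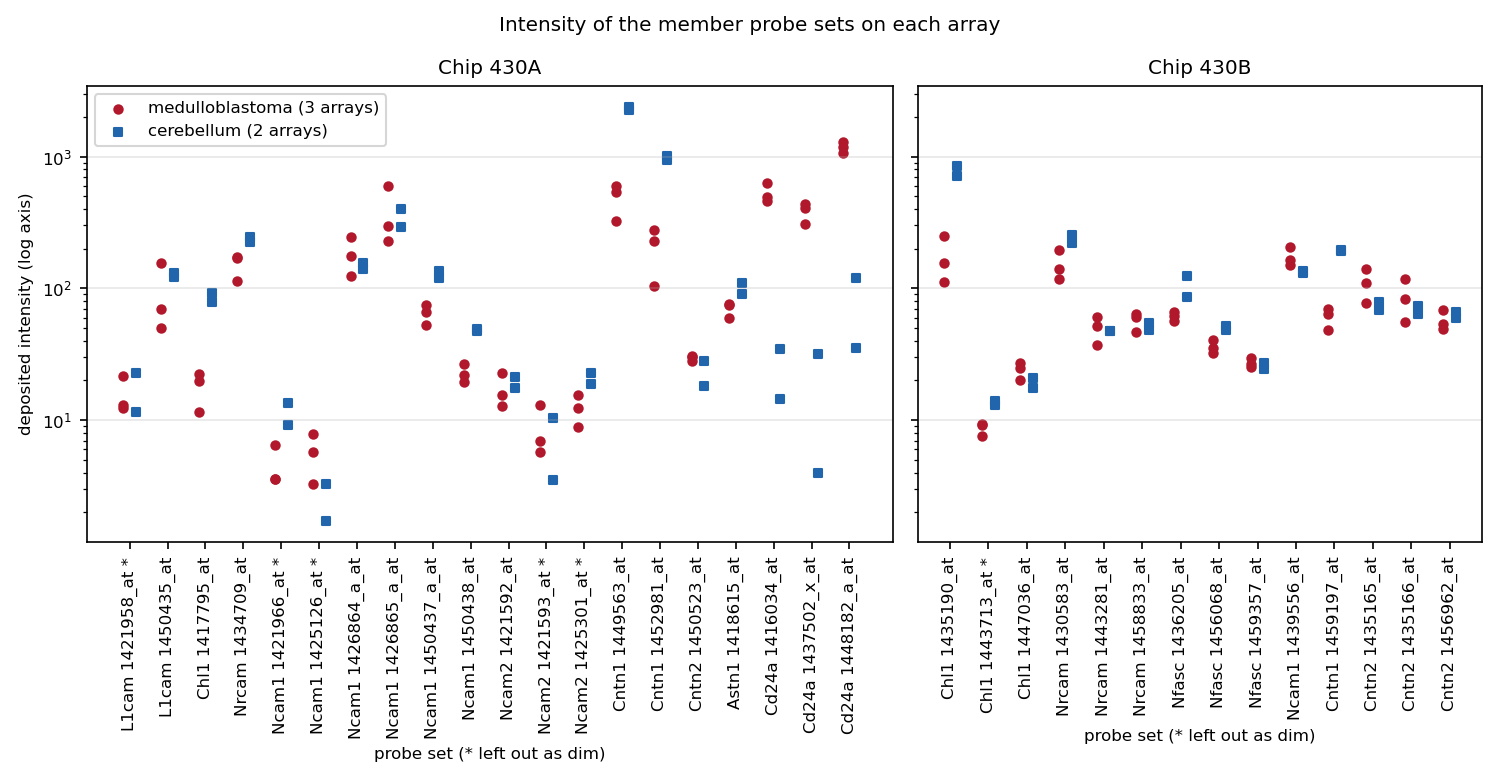
Deposited intensity (vertical, log axis) of the 34 probe sets on each array, with the 3 medulloblastoma arrays as circles to the left and the 2 cerebellum arrays as squares to the right of each position, for chips 430A and 430B. An asterisk marks the 6 probe sets left out as dim. The Cd24a circles stand far above the squares, and the Cntn1 circles stand below them.

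**Figure D2:**
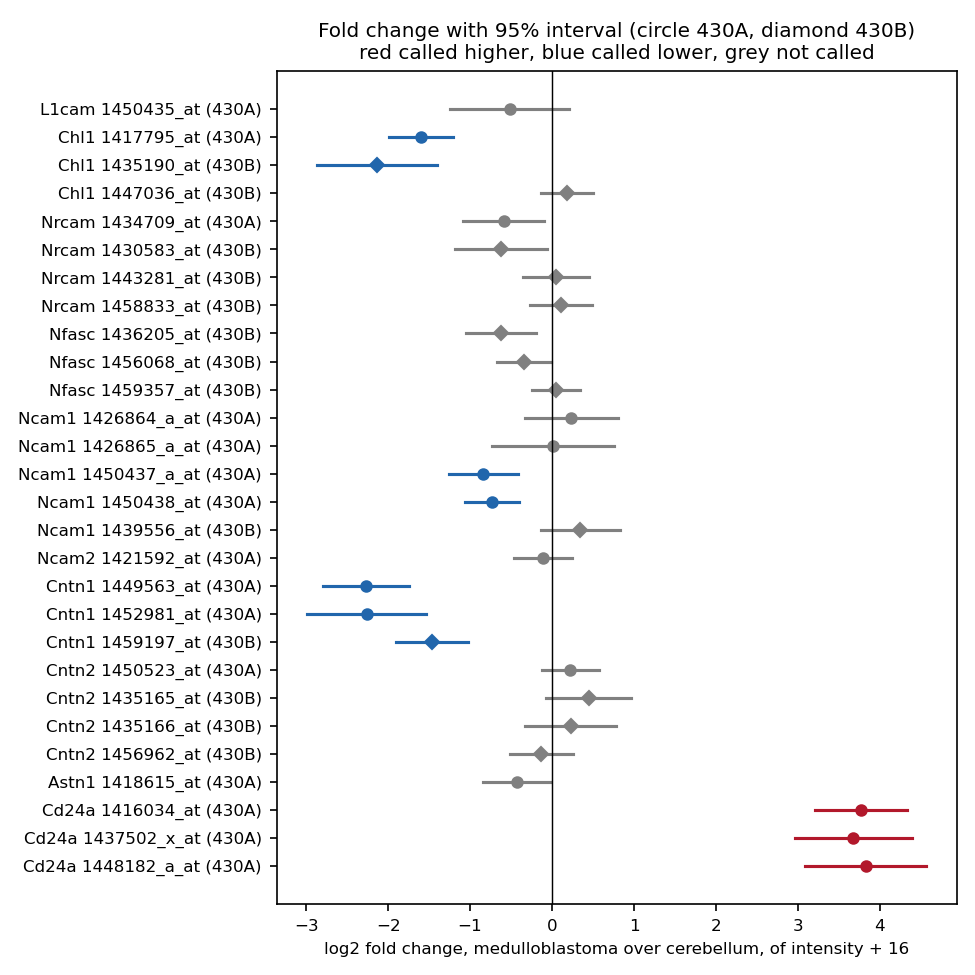
Log2 fold change of medulloblastoma over cerebellum with its 95% interval for the 28 tested probe sets, by gene and chip. The 3 Cd24a probe sets lie between 3.68 and 3.83, the 3 Cntn1 probe sets between -2.27 and -1.47, and the probe sets of L1cam, Nrcam, Nfasc, Ncam2, Cntn2 and Astn1 are grey, that is, not called.

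Cd24a had the largest difference of the 10 genes. The probe set 1448182_a_at read 1175, 1282 and 1059 in the tumours, against 120 and 35.4 in cerebellum. The log2 fold change was 3.83 ± 0.33 (limma, adjusted p = 8.54e-06), about 14.2-fold on the shifted scale. The probe set 1416034_at read 625, 457 and 489 in the tumours and 34.7 and 14.4 in cerebellum, a log2 fold change of 3.77 ± 0.25 (adjusted p = 1.81e-06). The last, 1437502_x_at, whose suffix marks probes that may match other transcripts too, read 405, 310 and 436 in the tumours and 32.0 and 3.97 in cerebellum (log2 fold change 3.68 ± 0.32, adjusted p = 8.79e-06). Its mean log2 level in cerebellum, 4.95, was under 4.997, the lowest mean of any tested probe set of the chip, so it was tested only because of the tumours, and the size of its fold change is uncertain. In all 3 the groups lay apart, the tumours were close to each other, and cerebellum 1 was higher than cerebellum 2. The size of the fold change depended on the cerebellum samples and on the pseudocount. For 1448182_a_at it was 4.53 without cerebellum 1 and 3.12 without cerebellum 2, for 1437502_x_at 4.31 and 3.04, and for 1416034_at 4.14 and 3.40. With pseudocounts of 1 and 64 in place of 16 it was 4.89 and 2.46 for 1437502_x_at, 4.47 and 2.73 for 1416034_at, and 4.14 and 3.19 for 1448182_a_at. All of these fits kept the call.

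The genes closest to Cd24a in pattern over the 5 arrays of 430A were Ccna2, the cyclin of S phase and G2, Mcm6, a subunit of the replicative helicase, and Mki67, a marker of dividing cells. Likeness was the root mean square difference of log2 values after each probe set was centred on its mean, and it was 0.099, 0.12 and 0.12 log2 units for the 3 genes, measured against 1448182_a_at. Mki67 read 627, 747 and 674 in the tumours and 53.8 and 11.2 in cerebellum, so that cerebellum 1 again exceeded cerebellum 2. On the chip, 9 other tested probe sets lay within 0.25 log2 units of Cd24a. The likeness is a description over 5 arrays of 1 chip, where all genes share the arrays.

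**Figure D3:**
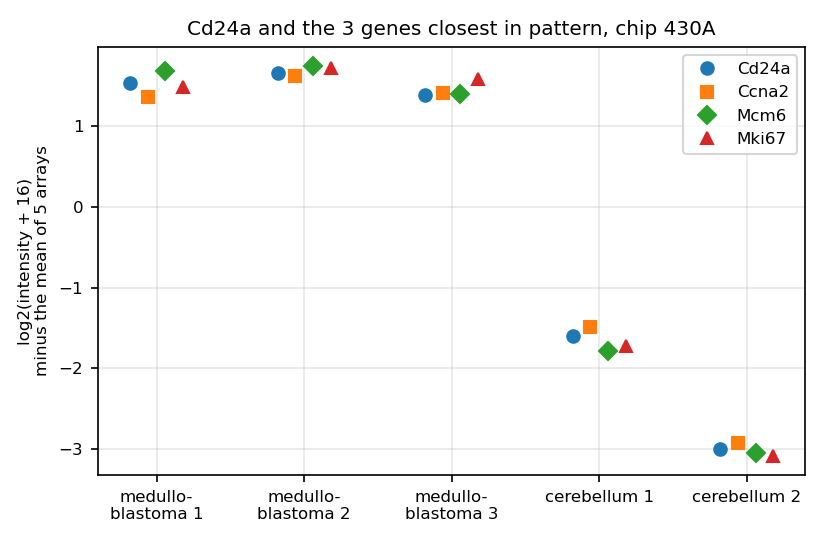
Log2(intensity + 16) minus the mean of the 5 arrays (vertical) for Cd24a and its 3 closest genes on the 3 medulloblastoma and 2 cerebellum arrays of 430A. Cd24a lies at 1.54, 1.66 and 1.39 in the tumours and at -1.59 and -2.997 in cerebellum, and Ccna2, Mcm6 and Mki67 stand beside it on each array.

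CD24 is also a marker of blood cells and of ciliated ependyma, and genes of such cells were examined. Counts of marker genes take each gene from the chip that represents it, while sums cover the genes with a probe set on 430A, tested or not, so the 2 can rest on different genes. Marker counts here and below compare with 10.7% of all 14702 genes called higher and 16% called lower in limma. Of 5 tested genes of erythroid cells and granulocytes none was called in limma, and their summed intensity ranged from 175 to 185 in the tumours and from 175 to 201 in cerebellum. These genes read from 19.5 (Alas2) to 50.9 (Ngp), near the array medians of 430A in both tissues. They could therefore hardly show a difference in blood cells, and the list holds no lymphocyte gene. Of 4 tested ependymal and choroid plexus genes, of which Ccdc153 and Tmem212 were read on 430B, 1 fell, Ttr, the transthyretin of the choroid plexus. The sums over the 4 genes of this list on 430A were 47.8 to 61.7 in the tumours and 102 to 264 in cerebellum. Microglia and macrophage genes were higher in 4 of 6, with sums of 845 to 1191 in the tumours and 397 to 480 in cerebellum. Granule neuron precursor genes were higher in 6 of 8 and lower in 1, with sums of 3597 to 4109 in the tumours and 2581 to 2864 in cerebellum. No gene of these lists was at the floor of 1 in all tumours, and the part of such cells in the Cd24a result was not tested.

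Of the contactins, Cntn1 fell and Cntn2 was not called. Contactin 1 is an axonal protein of granule neurons and, with CASPR, of the junctions beside the nodes of Ranvier. Its probe set 1449563_at read 541, 323 and 593 in the tumours and 2271 and 2386 in cerebellum, a log2 fold change of -2.27 ± 0.24 (limma, adjusted p = 2.96e-05). The second 430A probe set, 1452981_at, read 230, 104 and 279 in the tumours and 940 and 1001 in cerebellum (-2.26 ± 0.33, adjusted p = 0.00029). On 430B, 1459197_at read 63.4, 69.6 and 48.4 in the tumours and 192 and 196 in cerebellum (-1.47 ± 0.19, adjusted p = 5.21e-04). All tumours lay below both cerebellum samples with each probe set, and on 430A medulloblastoma 2 was the lowest. The call held in all alternatives, including the scaled 430B arrays, where the last probe set gave -1.84.

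Cntn2 (TAG-1) marks granule neurons that have just left the cycle. Its 4 probe sets gave log2 fold changes from -0.13 to 0.45, none called. The brightest, 1435165_at on 430B, read 109, 77.0 and 139 in the tumours and 68.0 and 79.0 in cerebellum, so that medulloblastoma 1 and 3 exceeded both cerebellum samples and medulloblastoma 2 lay between them. Its log2 fold change was 0.45 ± 0.23 (adjusted p = 0.243), with a 95% interval from -0.07 to 0.97. The interval includes 0. It was 0.08 with the 430B arrays scaled on the shared probe sets (0.47 relative to the chip's median, as without scaling) and 0.80 without medulloblastoma 1 and 2, where limma called it (adjusted p = 0.00101). The neighbouring probe set 1435166_at read 83.1, 55.9 and 119 in the tumours and 63.7 and 73.0 in cerebellum (0.23 ± 0.25, adjusted p = 0.616). It gave -0.14 with the scaled arrays (0.25 relative to the chip's median, as without scaling) and was called at 0.68 (adjusted p = 0.00672) without medulloblastoma 1 and 2. The 430A probe set 1450523_at read 30.0, 30.5 and 27.99 in the tumours and 28.3 and 18.2 in cerebellum (0.22 ± 0.16, adjusted p = 0.32). The probe set 1456962_at gave -0.13 ± 0.17, with -0.50 on the scaled arrays (-0.11 relative to the median, as without scaling) and 0.086 without medulloblastoma 1 and 2. The genes closest to 1435165_at in pattern were Kdm6b, Scrt2 and B230219D22Rik, at 0.08, 0.08 and 0.09 log2 units, but 1192 probe sets of 430B lay within 0.25 log2 units of it.

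In the L1 family, Chl1 fell and the other 3 genes were not called. Chl1, the close homologue of L1, is found on neurons and on some glia and is cut from the membrane by proteases such as BACE1. Its 430B probe set 1435190_at read 251, 155 and 113 in the tumours and 846 and 711 in cerebellum, a log2 fold change of -2.13 ± 0.33 (limma, adjusted p = 0.00125). On 430A, 1417795_at read 19.7, 11.5 and 22.3 in the tumours and 92.5 and 79.0 in cerebellum (-1.60 ± 0.18, adjusted p = 4.28e-05). Both probe sets put every tumour well below both cerebellum samples. Another probe set, 1447036_at, read 25.04, 20.02 and 27.0 in the tumours and 20.9 and 17.7 in cerebellum (0.18 ± 0.14, adjusted p = 0.468). It gave -0.19 with the scaled arrays (0.20 relative to the median) and 0.29 without medulloblastoma 1 and 2. The remaining one, 1443713_at, was left out as dim, with 7.56 to 9.35 in the tumours and 13.0 and 14.1 in cerebellum. The 2 called probe sets kept their call in all alternatives, and 1435190_at gave -2.62 without medulloblastoma 1 and 2 of 430B.

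Cntn1 and Chl1 are the members that fell with a probe set on each chip, and their promoters are shown as the sequence next to the start of the 2 genes that fell together. The 250 bases before a listed RefSeq start are given for GRCm38.p6, both on the plus strand. They are chr6:103510626-103510875 for Chl1 and chr15:92050915-92051164 for Cntn1, whose most upstream of 3 listed starts was taken. The annotated genes begin at 103510584 for Chl1 and 92051152 for Cntn1 in that assembly. The Chl1 window therefore lies inside the annotated gene, and the Cntn1 window reaches past the gene's start. Capitals mark CCAAT, the box bound by the factor NF-Y.
Chl1: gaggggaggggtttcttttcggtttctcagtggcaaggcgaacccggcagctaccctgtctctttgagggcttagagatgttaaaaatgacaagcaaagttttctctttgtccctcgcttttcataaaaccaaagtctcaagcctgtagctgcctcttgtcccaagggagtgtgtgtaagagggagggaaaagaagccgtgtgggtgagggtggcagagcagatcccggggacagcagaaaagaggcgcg
Cntn1: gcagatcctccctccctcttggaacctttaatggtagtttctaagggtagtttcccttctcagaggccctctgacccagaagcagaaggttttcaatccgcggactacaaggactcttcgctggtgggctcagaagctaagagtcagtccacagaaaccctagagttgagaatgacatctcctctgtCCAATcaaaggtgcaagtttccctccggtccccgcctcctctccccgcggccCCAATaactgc

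Both strands were searched. The Cntn1 window holds CCAAT 2 times, and the Chl1 window does not hold it. Of all 32851 promoter windows of this length 33.8% hold CCAAT. Neither window holds the E-box CANNTG, the letters to which basic helix-loop-helix factors such as ATOH1 bind, which 66.2% of windows hold, nor GACCACCCA, the GLI motif, which 0.225% hold. Of the 8 genes found in the promoter table, Ncam2 also has no E-box, Nrcam, Nfasc and Cntn2 have 1, L1cam has 2 and Astn1 has 3. No window of the 8 holds the GLI motif. The windows of Nfasc and Cntn2, like that of Chl1, lie inside the annotated gene. A match is a description of the letters and not of binding.

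L1cam, the founding member, promotes axon growth and bundling. Its probe set 1450435_at read 50.1, 155 and 69.5 in the tumours and 130 and 121 in cerebellum. Medulloblastoma 2 lay above both cerebellum samples and the other 2 tumours below them. The log2 fold change was -0.52 ± 0.33 (limma, adjusted p = 0.276), with a 95% interval from -1.24 to 0.21. Without medulloblastoma 2 it was -0.91 and was called (adjusted p = 0.00168), so 1 tumour decided the outcome. The second L1cam probe set, 1421958_at, was left out as dim, with 12.4 to 21.6 in the tumours and 11.6 and 22.8 in cerebellum.

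Nrcam takes part in the assembly of nodes and in axon guidance. On 430A, 1434709_at read 173, 114 and 171 in the tumours and 225 and 244 in cerebellum (-0.59 ± 0.22, limma, adjusted p = 0.067). On 430B, 1430583_at read 196, 141 and 118 in the tumours and 256 and 221 in cerebellum (-0.62 ± 0.25, adjusted p = 0.126). With both probe sets all tumours lay below both cerebellum samples, a pattern seen in 31.8% of all tested probe sets of 430A and 24.7% of those of 430B. The second of these was called with the scaled arrays (-0.99, adjusted p = 0.0026), without medulloblastoma 1 and 2 (-0.92), without medulloblastoma 1 alone (-0.81, adjusted p = 0.0494) and after quantile normalization (-0.61, adjusted p = 0.0409). The 430A probe set was called without the intensity trend (adjusted p = 0.0453). The 2 other probe sets of 430B, 1443281_at and 1458833_at, had overlapping groups and gave 0.04 ± 0.18 and 0.11 ± 0.17, and -0.32 and -0.26 with the scaled arrays. Relative to the median of all probe sets the last 2 values are 0.07 and 0.13, as the scaling moved all probe sets of the chip down.

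Nfasc, neurofascin, has a neuronal form at nodes and axon initial segments and a glial form in myelinating cells. Its probe set 1436205_at read 62.1, 56.8 and 66.1 in the tumours and 85.5 and 124 in cerebellum, so the groups lay apart. The log2 fold change was -0.62 ± 0.19 (limma, adjusted p = 0.0512), just short of the threshold. It was called with the scaled arrays (-0.99, adjusted p = 0.0118), without medulloblastoma 3 (-0.66, adjusted p = 0.00892), without medulloblastoma 1 and 2 (-0.54, adjusted p = 0.0443), without the intensity trend (adjusted p = 0.0417), with the lower 50% of probe sets left out (adjusted p = 0.0457) and at a pseudocount of 64 (adjusted p = 0.048). It moved away from the threshold without cerebellum 2 (-0.39, adjusted p = 0.426), without medulloblastoma 2 (-0.57, adjusted p = 0.187) and without medulloblastoma 1 (-0.63, adjusted p = 0.104). The probe set 1456068_at read 40.9, 35.5 and 32.4 in the tumours and 48.5 and 51.5 in cerebellum (-0.34 ± 0.15, adjusted p = 0.154). It gave -0.71 with the scaled arrays (-0.32 relative to the chip's median, as without scaling). The probe set 1459357_at gave 0.05 ± 0.13 with overlapping groups, -0.32 with the scaled arrays and 0.12 without medulloblastoma 1 and 2. Markers of oligodendrocytes and myelin fell in 5 of 6 tested genes, with summed intensities of 199 to 443 in the tumours and 4829 to 6404 in cerebellum. Their part in the Nfasc values was not tested.

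Ncam1 depended on the probe set. NCAM1 is made in forms of different length by alternative splicing and carries polysialic acid in immature neurons. The probe set 1450437_a_at read 66.5, 75.1 and 52.4 in the tumours and 119 and 136 in cerebellum, a log2 fold change of -0.84 ± 0.19 (limma, adjusted p = 0.00591). The probe set 1450438_at read 19.6, 26.9 and 21.9 in the tumours and 48.9 and 47.1 in cerebellum (-0.73 ± 0.15, adjusted p = 0.00303). All tumours lay below both cerebellum samples with both. Without cerebellum 2 the first was not called (-0.75, adjusted p = 0.0766).

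The other Ncam1 probe sets of 430A had overlapping groups and no call. The probe set 1426864_a_at read 124, 245 and 177 in the tumours and 140 and 154 in cerebellum (0.23 ± 0.26, adjusted p = 0.554). The probe set 1426865_a_at read 229, 599 and 297.5 in the tumours and 402 and 293 in cerebellum (0.01 ± 0.34, adjusted p = 0.989), with a 95% interval from -0.74 to 0.75. In both, medulloblastoma 2 was the highest of all 5 arrays. The second turned to -0.37 without medulloblastoma 2 and to -0.21 without cerebellum 2. On 430B, 1439556_at read 163, 151 and 207 in the tumours and 130 and 134 in cerebellum, with all tumours above both cerebellum samples (0.35 ± 0.22, adjusted p = 0.341). Of all tested probe sets of 430B, 20.8% had their groups apart in that direction. This probe set gave -0.024 with the scaled arrays (0.37 relative to the chip's median, as without scaling) and was called at 0.59 (adjusted p = 0.0269) without medulloblastoma 1 and 2.

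The 4 tested Ncam1 probe sets of 430A were compared within each array, where a scaling of the array nearly cancels. The log2 difference of 1426864_a_at minus 1450437_a_at was 0.77, 1.52 and 1.495 in the tumours and 0.21 and 0.16 in cerebellum. The groups lay apart in 3 of the 6 pairs, this one included. In the exact two-sided permutation test used here, the smallest p possible with 3 against 2 arrays was 0.2. Those 3 pairs reached it, and 0.4 was their Benjamini-Hochberg value over the 6 pairs. A difference between the probe sets is therefore described and was not established. Which exons the probe sets cover is not given in the sources used here. The 2 remaining probe sets, 1421966_at and 1425126_at, were left out as dim. They read 3.55 to 6.45 and 3.29 to 7.91 in the tumours, and 9.21 to 13.5 and 1.71 to 3.28 in cerebellum.

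**Figure D4:**
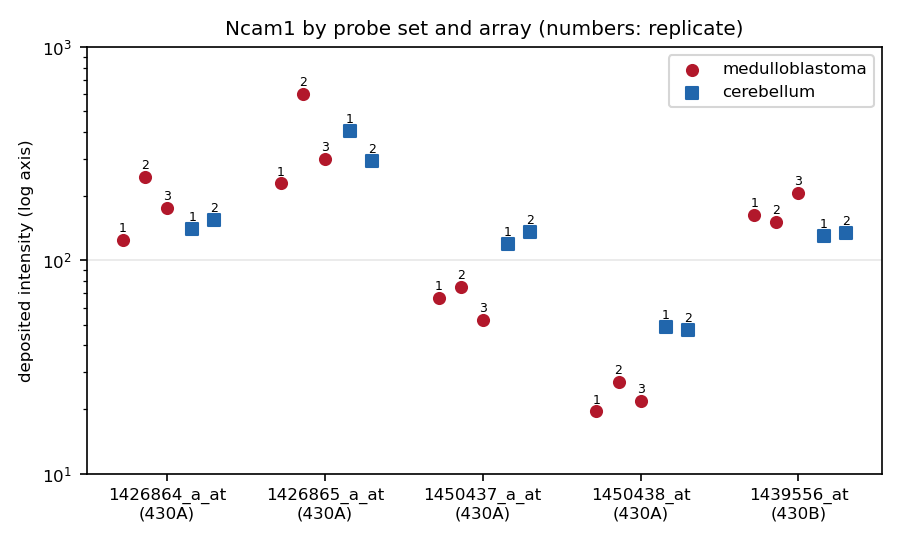
Deposited intensity (vertical, log axis) of the 5 tested Ncam1 probe sets on the medulloblastoma arrays (circles, left) and cerebellum arrays (squares, right), each numbered by replicate. The tumours lie below cerebellum with 1450437_a_at and 1450438_at, overlap it with 1426864_a_at and 1426865_a_at and lie above it with 1439556_at.

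Ncam2, a relative of NCAM1 best known from olfactory axons, was dim. Of its 3 probe sets 2 were left out, and 1421592_at read 12.8, 22.7 and 15.4 in the tumours and 17.5 and 21.3 in cerebellum (-0.11 ± 0.16, limma, adjusted p = 0.657). The 2 others read 5.69 to 13.1 (1421593_at) and 8.87 to 15.5 (1425301_at) in the tumours, and 3.51 to 10.4 and 18.7 to 22.8 in cerebellum. The filter rests on the mean over all 5 arrays of a chip, and the 6 probe sets of these genes that it removed never exceeded 22.8.

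Astn1, astrotactin 1, has a single probe set, 1418615_at, that read 59.1, 75.7 and 75.3 in the tumours and 90.4 and 109 in cerebellum. All tumours lay below both cerebellum samples. The log2 fold change was -0.43 ± 0.19 (limma, adjusted p = 0.106), with a 95% interval from -0.84 to -0.02, and without medulloblastoma 2 it was called at -0.48 (adjusted p = 0.0499). Genes of Bergmann glia and astrocytes, the cells on which astrotactin 1 acts, fell in 5 of 7, with sums of 439 to 749 in the tumours and 2691 to 3332 in cerebellum. Gfap of this list went the other way without a call (0.56 ± 0.22), and its 3 probe sets ranged from 0.22 to 1.37. The part of these cells in the Astn1 values was not tested.

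The falls of Cntn1 and Chl1 were accompanied by those of mature neuron genes. All 7 tested genes of mature granule neurons fell, with summed 430A intensities of 737 to 1237 in the tumours and 8184 to 8886 in cerebellum. All 5 tested Purkinje cell genes fell (sums of 168 to 369 in the tumours and 11853 to 14875 in cerebellum), and 5 of 6 interneuron genes fell (133 to 166 in the tumours and 1181 to 1607 in cerebellum). Endothelial genes were called lower in 1 of 4, Flt1, a VEGF receptor, with sums of 150 to 198 in the tumours and 149 to 158 in cerebellum. No gene of these lists read 1 or less in all tumours, and the part of these cells in the falls was not tested. Cntn1 and Chl1 are themselves expressed by neurons of the normal cerebellum.

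The partners of these proteins were taken as 66 genes in 5 lists, each represented by 1 probe set, of which 60 were tested. In limma 10 rose and 23 fell, against 10.7% of all 14702 genes higher and 16% lower. The counts of each list below compare with the same shares. Their median log2 fold change was -0.33, where that of all genes was -0.05. Among the falls, Thy1, Cntn6, Mcam, Icam5 and Sptbn4 had a mean log2 level in the tumours under 4.997, the filter's cut on 430A. They were tested only because of cerebellum, and the sizes of their falls are uncertain. The count of higher partner genes rested on few arrays. It was 4 without cerebellum 1, 3 without cerebellum 2 and 6 without medulloblastoma 1.

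Among 7 tested contactins and CASPR proteins 3 fell and none rose in limma. Cntn6, a contactin (NB-3) of granule neurons, read 15.1, 12.6 and 11.3 in the tumours and 158 and 109 in cerebellum (-2.35 ± 0.18, adjusted p = 3.24e-06). The size of that fall is uncertain, as Cntn6 was tested only because of cerebellum. Cntnap4 gave -1.99 ± 0.23 and Cntnap2 (CASPR2), the contactin 2 partner beside the nodes, -0.61 ± 0.15, although another Cntnap2 probe set gave 0.16. Cntnap1, the CASPR partner of contactin 1, was not called (0.01 ± 0.15, adjusted p = 0.962). Cntn4 was not called with the probe set that represents it (-0.42 ± 0.16, adjusted p = 0.068), but its other tested probe set gave -1.92.

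Of 21 other neural immunoglobulin adhesion molecules 11 fell and 1 rose. Thy1, an anchored protein of mature neurons, read 16.96, 15.7 and 14.3 in the tumours and 206 and 397 in cerebellum (-3.26 ± 0.24, limma, adjusted p = 2.71e-06). The size of that fall is uncertain too, as Thy1 was tested only because of cerebellum. Kirrel3, Nptn (neuroplastin) and Ntm (neurotrimin) gave -3.23 ± 0.23, -2.71 ± 0.21 and -2.50 ± 0.19, with other probe sets as small as -0.41 in Kirrel3 and Nptn. Alcam, named after its values were seen, was not called with the probe set that represents it (0.53 ± 0.21, adjusted p = 0.0823). Its 5 tested probe sets ranged from 0.30 to 1.12. The only called rise was in Mdga1, an anchored regulator of neuroligins, at 0.66 ± 0.20 (adjusted p = 0.0477), named after its value was seen. It was measured on 430B and was not called with the scaled arrays (0.29, adjusted p = 0.536) or without medulloblastoma 1 and 2 (0.32, adjusted p = 0.29).

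Among 11 tested genes of cytoplasmic adaptors 6 fell and 3 rose in limma. Ank1, an ankyrin, gave -2.56 ± 0.29, and the spectrins Sptan1 and Sptbn1 gave -2.04 ± 0.23 and -2.01 ± 0.21. Their other probe sets ranged up to -0.16 for Ank1, -1.87 for Sptan1 and 0.22 for Sptbn1. Ezr (ezrin), which links membrane proteins to actin, read 211, 202 and 137 in the tumours and 26.5 and 32.0 in cerebellum (2.12 ± 0.21, adjusted p = 2.33e-05). The other 2 rises were in the related Msn (0.73 ± 0.18) and Rdx (0.68 ± 0.22), named after their values were seen. Ank3 (ankyrin G), which anchors neurofascin and NrCAM at initial segments, was not called (-0.42 ± 0.28, adjusted p = 0.307), and its 6 probe sets ranged from -0.42 to 0.37.

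Of 8 enzymes that modify or shed these proteins 2 fell and 1 rose in limma. Of all genes 16% were lower and 10.7% higher, so for so few genes these counts are close to those shares. Bace1, the protease that cuts CHL1, gave -1.35 ± 0.24 (adjusted p = 0.00117), with -0.16 from another of its probe sets. St8sia4, a polysialic acid transferase of NCAM, gave -0.39 ± 0.13 (adjusted p = 0.0451) at intensities of 16.3 to 17.3 in the tumours and 26.0 to 28.3 in cerebellum. B3gat2, an enzyme of the HNK-1 carbohydrate, gave 0.52 ± 0.14 (adjusted p = 0.0329) on 430B, but was not called with the scaled arrays (0.15, adjusted p = 0.782). Without medulloblastoma 1 and 2 it gave 0.61.

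Extracellular and membrane partners were the list in which more genes rose, 5 of 13, with 1 fall. Cd9, a tetraspanin, read 604, 541 and 654 in the tumours and 164 and 123 in cerebellum (1.95 ± 0.21, limma, adjusted p = 3.03e-05). Ncan (neurocan), a proteoglycan that binds L1 and NCAM, gave 1.86 ± 0.25, and -0.25 with another probe set. Vcan (versican) gave 0.97 ± 0.34 (adjusted p = 0.0474), with probe sets from 0.02 to 0.97. The other rises, named after their values were seen, were in Itgb1, an integrin subunit (0.91 ± 0.25), and Mdk, the growth factor midkine (0.86 ± 0.20). The fall was in Ptprz1, a receptor phosphatase that binds contactin 1, at -1.29 ± 0.23 (adjusted p = 0.00124). Siglecg, a mouse receptor of CD24, was not called (-0.24 ± 0.15, adjusted p = 0.348).

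**Figure D5:**
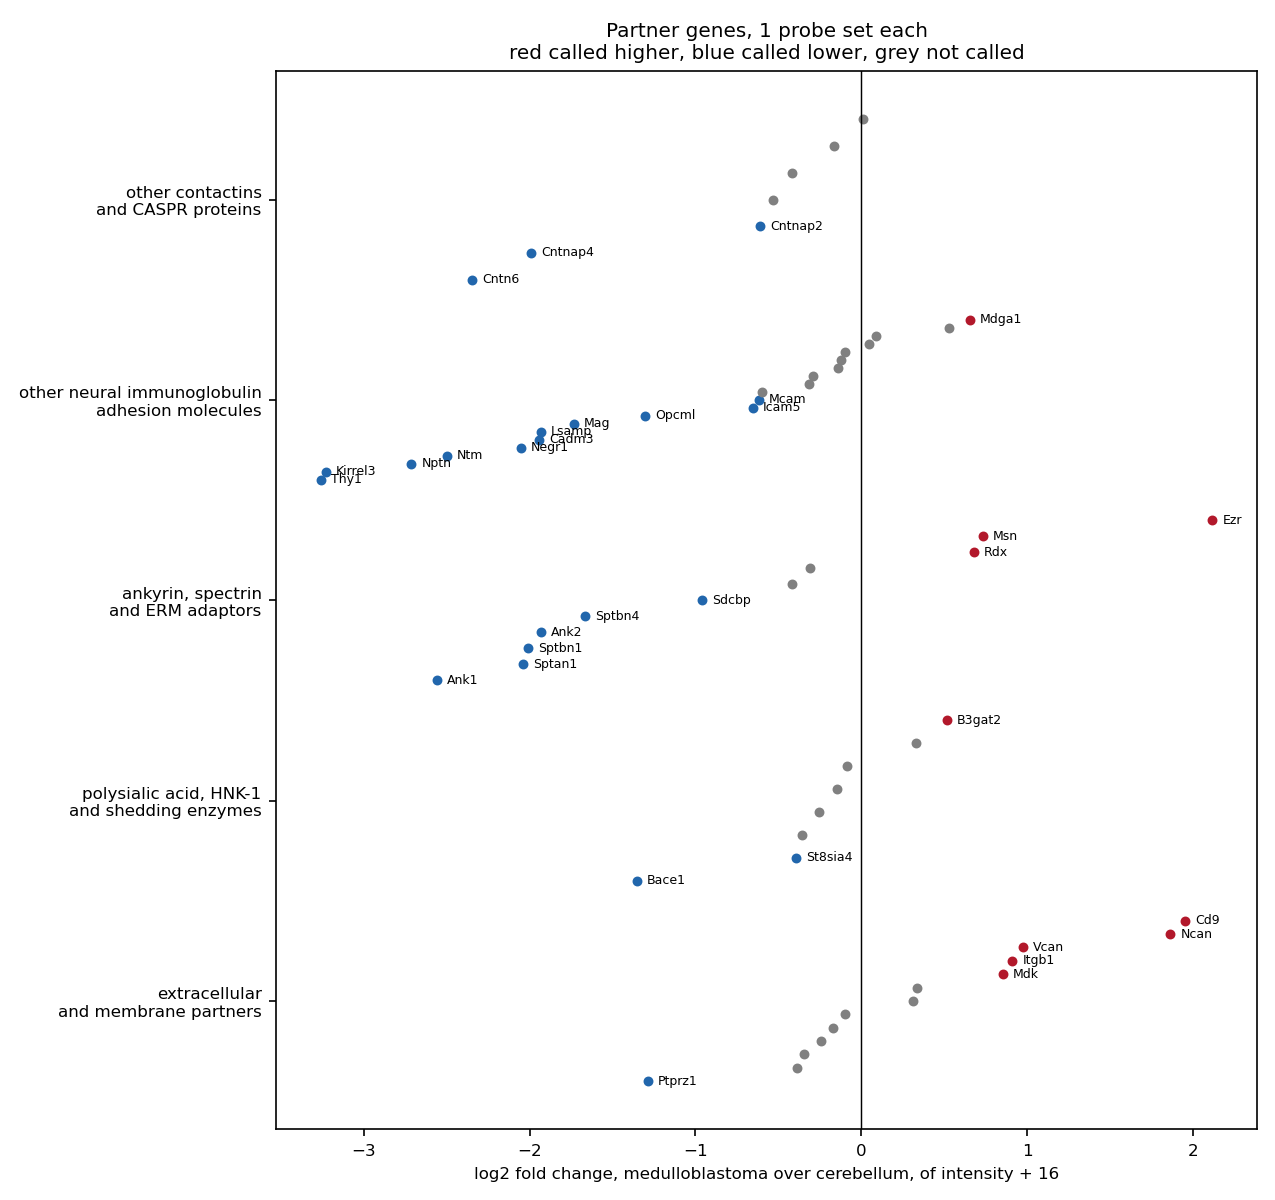
Log2 fold change of medulloblastoma over cerebellum (horizontal) for the 60 tested partner genes in 5 lists, 1 probe set each, spread vertically for legibility, with names on the genes called. Most called genes of the first 3 lists lie left of 0, and Ezr, Cd9 and Ncan lie farthest to the right.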

How the data were processed

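Probe set intensity was measured on 10 Affymetrix arrays. Per the labels' protocols, Trizol was used to extract RNA, from which biotinylated cRNA was made. The deposited intensity values are linear, 1 per probe set and array, and no source used here names their software or scaling. Precision is limited by the number of arrays, and detection calls were not used.

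Groups came from the sample titles. Genes were taken from the platform annotation, which names 1 gene for 20380 of 22626 probe sets on 430A and 14661 of 22511 on 430B. The 2 chips were fitted separately in R 4.3.3 with limma 3.58.1 (lmFit, eBayes with trend, two-sided, Benjamini-Hochberg) on log2(intensity + 16) after the lowest 25% were left out (16969 and 16883 probe sets tested). The test was tested on simulated data. Partner and marker genes used 1 tested probe set each: 430A before 430B, unshared probes (no _s_at or _x_at suffix) before others, and the brighter before the dimmer. Summed marker levels use the brightest 430A probe set of each gene. The members, lists, tests and the rule for named genes (all members, and up to 4 called partner genes per list by size) were all chosen with earlier results of these data known. A planned comparison of protein sequences was not run. Promoters are from RefSeq, GRCm38.p6. Alternatives changed 1 choice at a time, and leaving out medulloblastoma 1 and 2 of 430B was chosen after seeing the data. Python 3.11.15, scipy 1.17.1 and matplotlib 3.10.9 were used.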

Additional observations from a re-analysis of the deposited data

How the results depend on the processing

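Over the alternatives for probe sets of these genes, 382 values kept direction and side of the threshold, 19 gained a call, 1 lost it and 12 changed sign. All 12 were in probe sets without a call. The 382 include the stricter threshold of an adjusted p below 0.01 for each of the 28 tested probe sets. There the fold change is not recomputed, and a probe set without a call cannot gain one. On 430A, 3 higher probe sets were found under every alternative, and between 4 and 7 lower. On 430B lower probe sets numbered 4 with the scaled arrays and 4 without medulloblastoma 1 and 2, where 3 were higher, and 2 to 3 when 1 replicate was left out, against 2 as reported. Between 3 and 9 partner genes were higher when 1 replicate was left out, and 5 at an adjusted p below 0.01, against 10. Higher calls made up 44.6% of all calls on 430B as deposited, 20.1% with the scaled arrays (459 higher and 1824 lower, against 1326 and 1649), 36.1% without medulloblastoma 1 and 2 (1381 and 2445) and 50.03% after quantile normalization, and on 430A 40.9% as deposited and 50.7% after quantile normalization.

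Sign changes with the scaled arrays were Chl1 1447036_at (-0.19), Nrcam 1443281_at (-0.32) and 1458833_at (-0.26), Nfasc 1459357_at (-0.32), Ncam1 1439556_at (-0.024) and Cntn2 1435166_at (-0.14). Without medulloblastoma 1 and 2 of 430B, Nrcam 1443281_at gave -0.24, Nrcam 1458833_at -0.11 and Cntn2 1456962_at 0.086. With 1 replicate left out, Nrcam 1443281_at ranged from -0.070 (without medulloblastoma 1) to 0.19, and Ncam1 1426865_a_at from -0.37 (without medulloblastoma 2) to 0.29, with -0.21 without cerebellum 2. Scaling moves every probe set of the chip, and the cause of the other changes was not tested.

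With the replicate number as a block (replicate block), 4 of these probe sets were lower on 430B, against 2, with Nfasc 1436205_at (-0.66) and Nrcam 1430583_at (-0.48) added, and 6 against 5 on 430A, with Nrcam 1434709_at (-0.68) added. It added no other call among these genes and removed none. On 430A this fit too pooled the spread almost wholly over probe sets, so its p-values there hardly reflect a probe set's own spread. The labels do not say that a number marks a shared animal. The deviations of same-numbered samples correlated at -0.03 and 0.17 on 430A and 0.11 and 0.02 on 430B, for numbers 1 and 2, so the pairing was not established.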

Other observations

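Medulloblastoma 2 of 430A stood apart from the other 2 tumours in several of these genes. It was the highest tumour in L1cam 1450435_at (155, against 50.1 and 69.5), Ncam1 1426865_a_at (599, against 229 and 297.5) and Ncam1 1426864_a_at (245, against 124 and 177), and in the partner Ank3 (481, against 234 and 265). It was the lowest in Cntn1 1449563_at (323, against 541 and 593), Chl1 1417795_at (11.5, against 19.7 and 22.3) and Nrcam 1434709_at (114, against 173 and 171). Neurod1, a factor of granule neurons, was also highest in that tumour (932, against 431 and 709). Aqp4, the water channel of astrocytes, was lowest (104, against 327 and 277). The marker lists of these cells did not move together in it. Of the mature granule neuron genes, Kcnd2 was lowest there (22.7, against 34.5 and 30.2). Of the astrocyte genes, Gdf10 was highest (23.2, against 15.0 and 18.4). With 1 tumour these are values without a test.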
